A study of Mus musculus with 17 samples.

Results

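The neutrophil-attracting chemokine axis and the calprotectin genes were followed across doxorubicin-treated and control fibrosarcomas of mice. The set lists 9 genes: the CXC chemokines Cxcl1, Cxcl2, Cxcl3 and Cxcl5, their shared receptor Cxcr2, the granulocyte growth factor Csf3 (G-CSF) with its receptor Csf3r, and S100a8 and S100a9, which encode the subunits of calprotectin. A member was measured where the array's annotation gave a probe that symbol. That held for 8 of the 9 genes and 15 of 45281 probes, and no probe was annotated to Cxcl5. Probes detected on at least 2 arrays, at a detection p-value under 0.01, entered the tests, which left 6 genes of the set (Cxcl1, Cxcl2, Csf3, Csf3r, S100a8 and S100a9) among 12451 features.

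Neutrophils leave the blood along gradients of CXCR2 ligands, which stromal cells, macrophages and tumour cells release when NF-kappaB is activated by interleukin-1, TNF or microbial products. G-CSF drives their production and release from bone marrow. Neutrophils hold calprotectin as one of their most abundant cytosolic proteins, monocytes hold less, and stressed or wounded epidermis makes it too.

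All tumours were MCA205, a transplantable chemically induced fibrosarcoma line, growing in wild-type C57bl/6 mice. They were palpable, with an area of 25 to 45 mm2, when DX (doxorubicin, an anthracycline that damages DNA) or PBS (the saline vehicle) was injected into the tumour. Whole tumours were taken out, with no stimulation in culture, and their total RNA was hybridised to 1-colour Illumina BeadChips, 1 array per sample. PBS tumours were taken on day 2 and day 7 (3 arrays each). DX tumours were taken on day 2 (2 arrays), on day 7, where shrinkage told 3 responders from 3 non-responders, and on day 10, where 3 responders were sampled. PBS tumours of day 10 were not analysed here. The labels do not say that replicates came from different animals, so p-values measure only the spread between these samples. In such bulk tumour RNA, fewer cells of a type and less RNA per cell cannot be told apart.

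Between 13728 and 15568 probes were detected per array, and the median deposited signal was 105.8 to 135.5. The lowest numbers, 14004 and 13728, and the lowest upper-quartile signals, 133.3 and 138.5, belonged to replicates 2 and 3 of day 7 PBS, which enter every day 7 comparison with PBS. The 17 arrays lay on 3 BeadChips, numbered 1 to 3 here, and each pair of groups shared at most 2 of these BeadChips. BeadChip 1 held DX arrays only, and all PBS arrays lay on BeadChips 2 and 3. Differences of DX from PBS therefore cannot be fully told apart from differences between BeadChips. Some specimens held RNA of neighbouring tissue. The mean log2 level of 8 tested epidermal keratinocyte markers was over 7 on 5 arrays (day 2 PBS replicate 3, day 7 non-responder 2, day 7 responder 3 and day 10 responders 2 and 3), and day 7 responder 3 and day 10 responder 3 also carried skeletal muscle transcripts. Levels below are log2 signals after background correction and quantile normalization, and differences are log2 differences of group means with their standard error (SE) and 95% interval from the limma fit.

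The transcripts of the set fell into 3 classes of detectability. Cxcl1 was detected on 17 of 17 arrays, S100a8 on 15, Cxcl2 on 12 and S100a9 on 10. The growth factor receptor Csf3r was detected on 8 arrays and Csf3 itself on 3. Cxcl3 (1 probe) and the receptor Cxcr2 (2 probes) were detected on 0 of 17 arrays, so no level of either is given. Their deposited signals were 88.3 to 132.1 for Cxcl3 and 100.4 to 135 over the Cxcr2 probes. Where a gene had several probes, the others were dimmer. The second Cxcl2 probe was detected on 9 arrays, the second Csf3 probe on 0, and the other 4 Csf3r probes on 1, 0, 0 and 0.

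**Figure D1:**
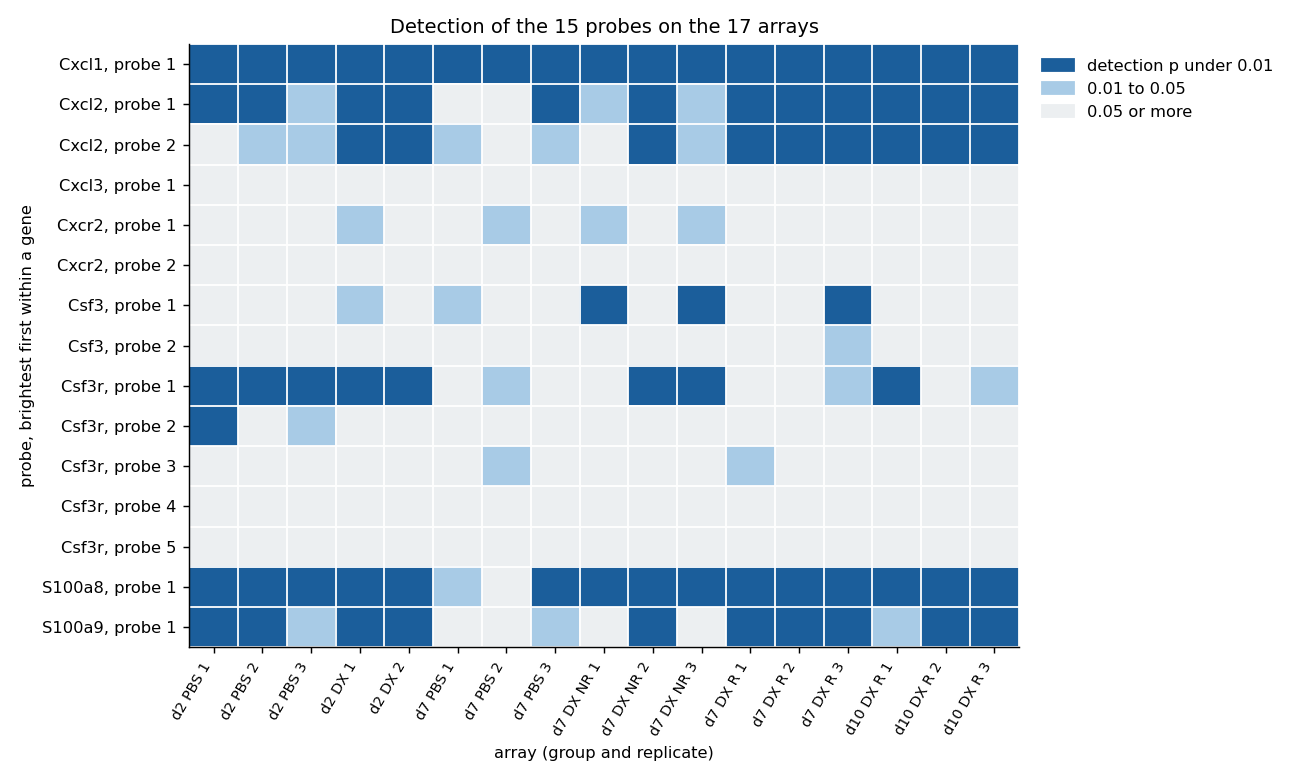
Detection of the 15 probes (rows, brightest probe of a gene first) on the 17 arrays (columns, by group and replicate). Dark cells have a detection p-value under 0.01. Cxcl1 is detected on all 17 arrays and Cxcl3 and Cxcr2 on 0, and Csf3r is detected on all 5 day 2 arrays.

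Promoter sequence is shown for the 4 genes detected on at least 10 arrays, because the chemokines and the calprotectin genes differ there in matches to the NF-kappaB spelling searched. The sequences are the 250 bases before the annotated start, from RefSeq on GRCm38.p6, written 5′ to 3′ in the direction of transcription. They lie at chr5:90890995-90891244 (plus strand) for Cxcl1, chr5:90903649-90903898 (plus strand) for Cxcl2, chr3:90668821-90669070 (plus strand) for S100a8 and chr3:90695722-90695971 (minus strand) for S100a9. Capitals mark matches to the NF-kappaB motif GGGNNTTTCC on either strand.
Cxcl1: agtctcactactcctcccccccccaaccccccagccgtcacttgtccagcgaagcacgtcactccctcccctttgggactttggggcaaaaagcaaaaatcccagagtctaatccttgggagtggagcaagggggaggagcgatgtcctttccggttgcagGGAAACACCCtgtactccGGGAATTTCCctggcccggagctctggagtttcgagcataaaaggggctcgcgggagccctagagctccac
Cxcl2: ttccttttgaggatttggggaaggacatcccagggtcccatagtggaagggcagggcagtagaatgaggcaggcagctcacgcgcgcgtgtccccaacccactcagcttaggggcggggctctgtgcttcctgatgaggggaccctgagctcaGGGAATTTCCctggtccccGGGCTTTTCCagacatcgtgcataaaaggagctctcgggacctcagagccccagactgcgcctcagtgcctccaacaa
S100a8: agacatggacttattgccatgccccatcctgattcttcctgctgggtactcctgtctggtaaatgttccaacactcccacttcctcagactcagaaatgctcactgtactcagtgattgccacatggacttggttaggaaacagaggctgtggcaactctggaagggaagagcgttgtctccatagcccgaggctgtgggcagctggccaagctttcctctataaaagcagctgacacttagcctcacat
S100a9: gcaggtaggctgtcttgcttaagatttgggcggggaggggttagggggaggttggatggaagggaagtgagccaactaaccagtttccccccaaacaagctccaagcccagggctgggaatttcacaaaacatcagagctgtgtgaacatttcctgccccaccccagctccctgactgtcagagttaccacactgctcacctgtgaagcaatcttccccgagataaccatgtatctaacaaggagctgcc

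The same 10 letters, GGGAATTTCC, stood at 71 to 62 bases before the start of Cxcl1 and at 97 to 88 bases before that of Cxcl2. Each of these promoters held a second match, on the minus strand of Cxcl1 (GGAAACACCC, 89 to 80 bases upstream) and on the plus strand of Cxcl2 (GGGCTTTTCC, 78 to 69 bases upstream). The Cxcl3 promoter, whose transcript was not detected, held GGGAATTTCC at 73 to 64 bases. S100a8, S100a9, Cxcr2 and Csf3r had 0 matches in this window, and 1.41% of 32841 promoters of the same length had at least 1. Other spellings of the NF-kappaB motif were not searched, and the S100a9 window held gggaatttca, which differs from the chemokine sequence in its last letter. The C/EBP-type motif TTNNGNAA matched 1 time in Cxcl2, 1 time in S100a8 and 2 times in S100a9, and 36.9% of all promoters held it on either strand. The TATA box letters TATAAA stood 30 to 25 bases before the start of S100a8 and of Cxcl3, against 12.4% of all promoters with a match on either strand. A match describes letters, not a bound site. These 7 promoters were searched, and those of Cxcl5 and Csf3 were not looked at here. Cxcl1, Cxcl2 and Cxcl3 lie together on chromosome 5, and S100a8 and S100a9 on chromosome 3.

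Over the set, group means were higher in DX tumours than in time-matched PBS tumours for Cxcl1, Cxcl2, S100a8 and S100a9 on both day 2 and day 7, by 0.56 to 2.11 on the log2 scale, but 0 of the 6 tested members passed the test in any comparison. The test was limma's, over all 12451 features, at a Benjamini-Hochberg adjusted p under 0.05. The comparisons of day 7 responders, non-responders and all day 7 DX tumours share the 3 PBS arrays. BeadChip 1 held no PBS array, and with BeadChip as a block the day 2 difference of S100a8 was -0.29.

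On day 2, 0 of 6 members were called in DX against PBS, where 0.61% of all features were. At an unadjusted p under 0.05 there were 2 members (Cxcl1 and Cxcl2), against 6.91% of all features. Every DX array lay above every PBS array for 4 members (Cxcl1, Cxcl2, Csf3 and S100a9), against 12.2% of all features, and Csf3 was detected on none of these 5 arrays, so its values there have no order. The median difference over the 6 tested members, Csf3 included, was 0.68, and that over all features was -0.02.

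In day 7 responders against PBS, 0 of 6 members were called, against 0.53% of all features. An unadjusted p under 0.05 was reached by 4 members (Cxcl1, Cxcl2, S100a8 and S100a9), against 13.8% of all features. The same 4 had every responder array above every PBS array, as did 11.2% of all features. The members' median difference, Csf3 included, was 1.03, and that of all features 0.01. With only these 2 groups in the fit, S100a8 was called (adjusted p = 0.0291, in a range of 0.0291 to 0.899 over the alternatives).

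In day 7 non-responders against PBS, 0 of 6 members were called, against 0.129% of all features. At an unadjusted p under 0.05 there were 3 (Cxcl1, Csf3 and S100a8), against 10.8% of all features, and only Cxcl1 had every non-responder array above every PBS array, against 8.45% of all features. Csf3 was detected on 0 of the 3 PBS arrays and passed the filter only through 3 day 7 DX arrays, so nothing is read from its place in these counts. The members' median difference was 0.78, and that of all features 0.02. Csf3 enters this median too, so it is given as a value only. Over all 6 DX tumours of day 7 together, a comparison added after seeing the data, 0 of 6 members were called against 0.297% of all features. An unadjusted p under 0.05 was reached by Cxcl1, Cxcl2, S100a8 and S100a9, and by Csf3 with the same limit, against 14.2% of all features. Cxcl1 alone had all 6 DX arrays above the PBS arrays, against 3.91% of all features. The members' median, which again includes Csf3, was 0.91 against 0.02.

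Responders and non-responders of day 7 differed in 0 of 6 members by the test, and 0% of all features were called there. An unadjusted p under 0.05 was reached by 0 members against 5.71% of all features, and 0 members had groups that did not overlap. Between day 10 and day 7 responders the counts were 0 called, against 0.00803% of all features, and 0 at an unadjusted p under 0.05, against 3.92%. Every day 10 array lay below every day 7 array for 4.44% of all features and, among members, only for Csf3, which was detected on 1 of these 6 arrays, so that its values there have no order.

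Over time in PBS tumours, 0 of 6 members were called between day 7 and day 2, against 0.634% of all features. At an unadjusted p under 0.05 there were 2 (Cxcl1 and Csf3r), against 14.5% of all features, and the same 2 had every day 7 array below every day 2 array, as did 12.1% of all features. Over time in DX tumours, 0 of 6 members were called, against 1.63% of all features, and Cxcl1 and Csf3r had an unadjusted p under 0.05, against 18.7%. Csf3r alone had all day 7 DX arrays below the day 2 DX arrays, against 8.82% of all features. When arrays were weighted by their quality in the limma fit, Cxcl1 was called in the day 2 comparison (adjusted p = 0.0213, in a range of 0.0213 to 1 over the alternatives). Under the same weights Cxcl1 (adjusted p = 0.0311, range 0.0311 to 0.66) and Csf3r (adjusted p = 0.0162, range 0.0162 to 0.388) were called over time in DX tumours. The change of the DX effect from day 2 to day 7 was called for 0 members, against 0.225% of all features, and 0 had an unadjusted p under 0.05, against 8.04%.

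**Figure D2:**
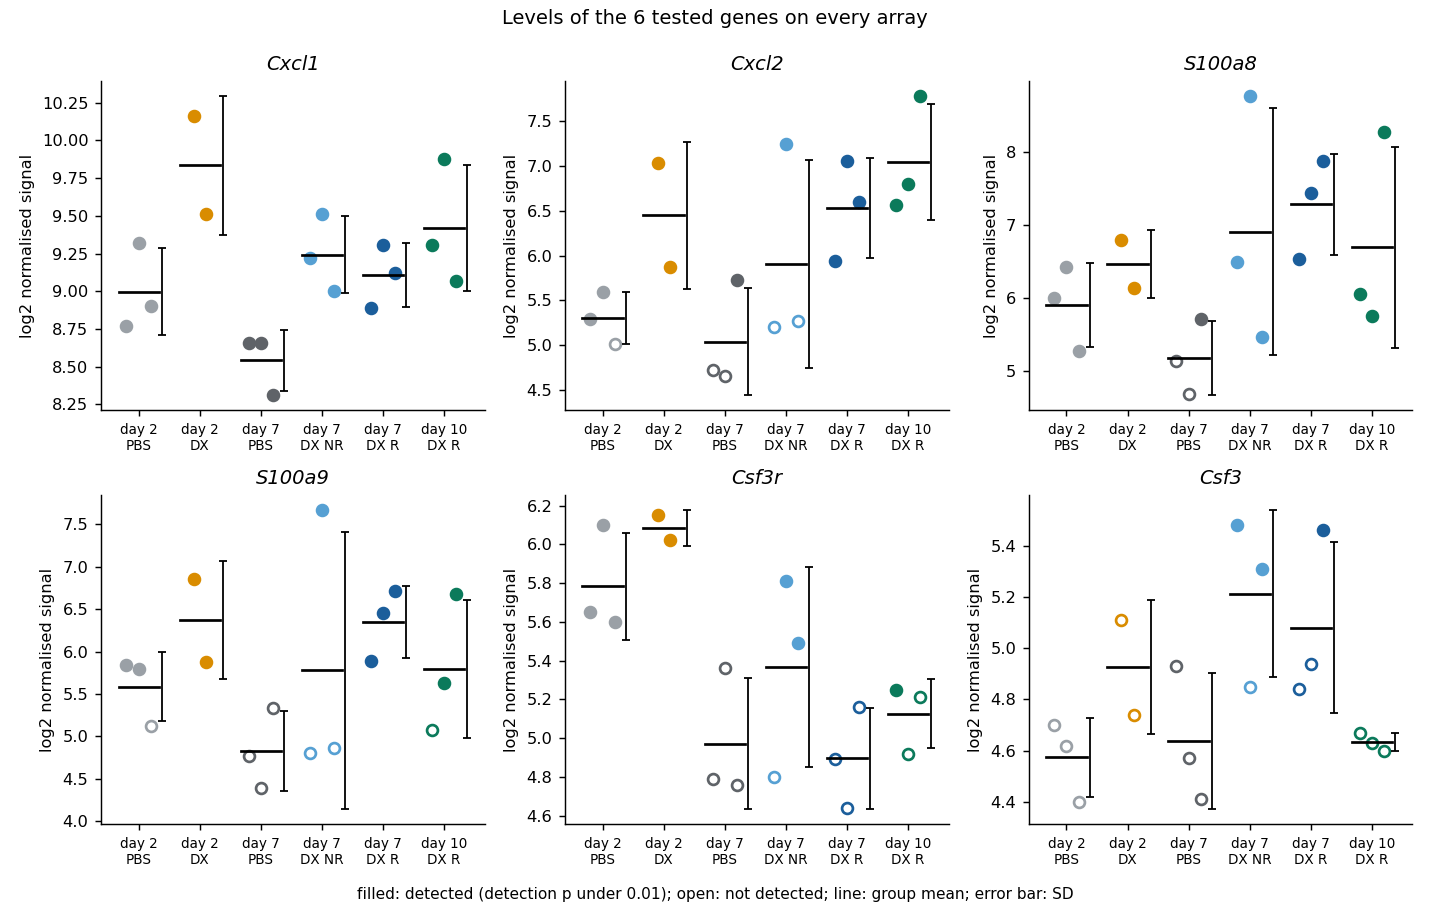
Level (log2 normalised signal) of the 6 tested genes on every array, by group. Filled points were detected (detection p-value under 0.01), open points were not, lines are group means and bars the SD. Day 7 PBS has the lowest group mean for Cxcl1, Cxcl2, S100a8 and S100a9, and day 7 non-responder 2 is the highest array for S100a8 and S100a9.

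Cxcl1 (KC), the main mouse CXCR2 ligand of stromal and tumour cells, was the only chemokine of the set detected throughout (probe ILMN_2763245, deposited signal 289.2 to 1409.6). Its log2 level was 8.77, 9.32 and 8.90 in day 2 PBS, and 10.16 and 9.51 in day 2 DX. On day 7 it was 8.66, 8.66 and 8.31 in PBS, 9.22, 9.51 and 9.00 in non-responders, and 8.89, 9.31 and 9.12 in responders. In day 10 responders it was 9.31, 9.88 and 9.07. Both day 2 DX arrays lay above all day 2 PBS arrays, and all 6 DX arrays of day 7 lay above all day 7 PBS arrays.

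The day 2 DX mean of Cxcl1 exceeded PBS by 0.84 (SE 0.24, 95% interval 0.33 to 1.34), a 1.79-fold ratio with an adjusted p of 0.196. BeadChip 3 was the only one to hold both groups, and the difference within it was 0.40 (1 DX and 2 PBS arrays). On day 7 all DX tumours exceeded PBS by 0.63 (SE 0.19, 0.24 to 1.02; adjusted p = 0.13), with 0.70 (SE 0.21, adjusted p = 0.247) in non-responders and 0.56 (SE 0.21, adjusted p = 0.253) in responders. Within single BeadChips the non-responder difference was 0.63 (BeadChip 2, 2 arrays each) and the responder difference 0.23 (BeadChip 3, 1 array each). With BeadChip as a block they were 0.68 and 0.33.

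Cxcl1 was 0.45 lower on day 7 than on day 2 in PBS tumours (difference -0.45, SE 0.21, interval -0.90 to 0.00; adjusted p = 0.341), and within BeadChips 2 and 3 the difference was -0.28 and -0.45. In DX tumours the difference of day 7 from day 2 was -0.66 (SE 0.21, -1.11 to -0.21; adjusted p = 0.116), and -0.79 within BeadChip 1. It was -0.34 without day 2 DX replicate 1 and -0.98 without replicate 2, fits in which the lone day 2 DX array takes its spread from the remaining groups. The DX effect of day 7 minus that of day 2 was -0.20 (SE 0.30, -0.84 to 0.43; adjusted p = 0.9). Day 10 responders differed from day 7 responders by 0.32 (SE 0.21, -0.14 to 0.77; adjusted p = 1), by -0.02 within BeadChip 1 and by 0.99 within BeadChip 3. From the highest group mean to the lowest the order was day 2 DX, day 10 responders, day 7 non-responders, day 7 responders, day 2 PBS and day 7 PBS. Of neighbours in that order, only the first pair (gap 0.41) and the last (gap 0.45) lay further apart than the pooled within-group SD of 0.31.

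Cxcl2 (MIP-2), a CXCR2 ligand made by activated macrophages among other cells, stood near the detection limit in PBS tumours (probe ILMN_2778289, deposited signal 106.4 to 266.1). Its log2 level was 5.29, 5.60 and 5.02 in day 2 PBS, and 7.03 and 5.87 in day 2 DX. On day 7 it was 4.73, 4.66 and 5.73 in PBS, 5.20, 7.25 and 5.27 in non-responders, and 5.94, 7.05 and 6.60 in responders. In day 10 responders it was 6.56, 6.80 and 7.78. It was detected on every responder array of days 7 and 10, but on 1 of 3 arrays in day 7 PBS and on 1 of 3 in non-responders, where replicate 2 stood well above the other 2.

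Responders of day 7 exceeded PBS in Cxcl2 by 1.49 (SE 0.48, interval 0.47 to 2.51; adjusted p = 0.185), with Cxcl2 detected on 1 of the 3 PBS arrays, by 1.21 within BeadChip 3 (1 array each) and by 0.67 with BeadChip as a block. Non-responders exceeded PBS by 0.87 (SE 0.48, -0.15 to 1.89; adjusted p = 0.548), by 0.04 within BeadChip 2, and by 0.20 without replicate 2. The responder mean was 0.62 above the non-responder mean (SE 0.48, -0.40 to 1.64; adjusted p = 0.897), which became 1.29 without non-responder 2. Within BeadChip 1, which held non-responder 2 and 2 responders, the difference was -0.42.

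The day 2 difference of Cxcl2 was 1.15 (SE 0.54, 0.01 to 2.28; 2.21-fold, adjusted p = 0.718), 0.56 within BeadChip 3 and 0.56 with BeadChip as a block. All day 7 DX tumours exceeded PBS by 1.18 (SE 0.42, 0.30 to 2.06; adjusted p = 0.215). Day 10 responders differed from day 7 responders by 0.52 (SE 0.48, -0.50 to 1.53; adjusted p = 1), and without the 2 muscle-rich arrays by 0.18. The dimmer Cxcl2 probe was detected on 0 of 6 PBS arrays, so no difference from PBS is given for it, and its difference between day 10 and day 7 responders, where it was detected on all 6 arrays, was -0.01. Group means ran from day 10 responders through day 7 responders, day 2 DX, day 7 non-responders and day 2 PBS to day 7 PBS, and no neighbours in this order lay further apart than the pooled SD of 0.72. The last 3 groups include arrays on which Cxcl2 was not detected.

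Csf3 (G-CSF), the growth factor of granulocytes, was detected on only 3 arrays, day 7 non-responders 1 and 3 and day 7 responder 3, at log2 levels of 5.48, 5.31 and 5.46. On the other 14 arrays it was not detected, with values of 4.40 to 5.11. No difference between groups is given for it.

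Csf3r, the receptor through which G-CSF acts on neutrophils and their precursors, was detected on all 5 day 2 arrays and on 3 of the 12 later ones (probe ILMN_1255648, deposited signal 112.5 to 214.6). Its log2 level was 5.65, 6.10 and 5.60 in day 2 PBS, and 6.15 and 6.02 in day 2 DX. On day 7 it was 4.79, 5.36 and 4.76 in PBS, none of them detected, and 4.89, 4.64 and 5.16 in responders, none of them detected. Day 7 non-responders stood at 4.80, 5.81 and 5.49, with the last 2 detected, and day 10 responders at 5.25, 4.92 and 5.21, with the first detected. No day 7 PBS or responder array reached the lowest day 2 array.

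In PBS tumours the Csf3r mean was 4.97 on day 7 and 5.78 on day 2 (difference -0.82, SE 0.26, interval -1.36 to -0.27; adjusted p = 0.159). For the means of these arrays it was lower on day 7 by a bound of 1.34-fold. Such a bound sets the bright mean against the dim arrays, each taken at its lowest detected signal or at the probe's value where that is higher. It is given only where every array of the brighter group was detected, and it leaves out the spread between arrays, which the interval gives. The interval can therefore reach below the bound. In DX tumours the difference was -0.95 (SE 0.26, -1.49 to -0.41; adjusted p = 0.068), with Csf3r detected on 2 of the 6 day 7 arrays, and it was -0.31 with no background correction. The differences were -0.59 and -1.06 within BeadChips 2 and 3 for PBS, and -0.79 within BeadChip 1 for DX. On day 2 the DX mean exceeded PBS by 0.30 (SE 0.29, -0.31 to 0.91; adjusted p = 0.999), and by 0.17 within BeadChip 3. The responder mean was 4.90 and the non-responder mean 5.37 (difference -0.47, SE 0.26, -1.01 to 0.07, adjusted p = 0.857), with -0.91 within BeadChip 1. Csf3r was detected on 0 of the 3 responder arrays and 2 of the 3 non-responder arrays, so no fold is given. The highest group means were those of day 2 DX and day 2 PBS, and the step from day 2 PBS to day 7 non-responders, 0.42, exceeded the pooled SD of 0.32. Day 10 responders, day 7 PBS and day 7 responders are not ordered, since Csf3r was detected on 1 of their 9 arrays.

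S100a8, the calprotectin subunit also called MRP8, had the widest range of the set (probe ILMN_2710905, deposited signal 107 to 556.9). Its log2 level was 6.00, 6.42 and 5.28 in day 2 PBS, and 6.80 and 6.14 in day 2 DX. On day 7 it was 5.13, 4.69 and 5.71 in PBS, 6.49, 8.77 and 5.46 in non-responders, and 6.53, 7.44 and 7.88 in responders. In day 10 responders it was 6.06, 5.75 and 8.28. All 3 responders of day 7 lay above all 3 PBS arrays of that day, whereas non-responders held both the highest array of the series and 1 below the highest PBS array.

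Day 7 responders exceeded PBS in S100a8 by 2.11 (SE 0.68, interval 0.68 to 3.53; adjusted p = 0.183). S100a8 was detected on 1 of the 3 PBS arrays of that day, so no fold against them is given. The difference was 1.40 within BeadChip 3 (1 array each), 0.88 with BeadChip as a block, and 1.80 without responder 3, the array rich in muscle and epidermal transcripts. Non-responders exceeded PBS by 1.73 (SE 0.68, 0.30 to 3.16; adjusted p = 0.365), by 0.77 within BeadChip 2, and by 0.80 without non-responder 2. All day 7 DX tumours exceeded PBS by 1.92 (SE 0.59, 0.68 to 3.15; adjusted p = 0.149), with 5 of 6 DX arrays above all PBS arrays. That difference was 1.06 with BeadChip as a block and 1.30 without the 5 epidermis-rich arrays, of which 2 are DX arrays of day 7. The responder mean was 0.37 above the non-responder mean (SE 0.68, -1.05 to 1.80; adjusted p = 0.974). It was 1.31 above without non-responder 2, and was -1.11 from it within BeadChip 1.

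On day 2 the S100a8 mean of DX exceeded PBS by 0.57 (SE 0.76, -1.03 to 2.16; adjusted p = 0.999), by 0.28 within BeadChip 3 and by -0.29 with BeadChip as a block. The DX effect of day 7 minus that of day 2 was 1.35 (SE 0.96, -0.67 to 3.37; adjusted p = 0.77). In PBS tumours day 7 minus day 2 was -0.72 (SE 0.68, -2.15 to 0.70; adjusted p = 0.675), with -0.79 and -0.72 within BeadChips 2 and 3. In DX tumours it was 0.63 (SE 0.68, -0.80 to 2.06; adjusted p = 0.657), 1.42 within BeadChip 1, and 0.16 without non-responder 2. Day 10 responders differed from day 7 responders by -0.58 (SE 0.68, -2.01 to 0.84; adjusted p = 1), and by -1.38 without day 10 responder 3. The order of group means was day 7 responders, day 7 non-responders, day 10 responders, day 2 DX, day 2 PBS and day 7 PBS, with no step larger than the pooled SD of 1.04.

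S100a9, the partner subunit (MRP14), gave a similar ranking of arrays at lower detection (probe ILMN_2803674, deposited signal 98.3 to 306.4). Its log2 level was 5.84, 5.80 and 5.12 in day 2 PBS, and 6.86 and 5.88 in day 2 DX. On day 7 it was 4.77, 4.39 and 5.33 in PBS, 4.80, 7.67 and 4.86 in non-responders, and 5.89, 6.45 and 6.72 in responders. In day 10 responders it was 5.08, 5.63 and 6.68. It was detected on 3 of 3 day 7 responder arrays, on 1 of 3 non-responder arrays (replicate 2) and on 0 of 3 day 7 PBS arrays.

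The S100a9 mean was 6.36 in day 7 responders and 4.83 in PBS (difference 1.53, SE 0.58, interval 0.32 to 2.74; adjusted p = 0.252). For the means of these arrays the bound was 1.99-fold. The difference was 1.13 within BeadChip 3, 0.52 with BeadChip as a block, and 1.34 without responder 3. The interval and the value with BeadChip as a block reach below the bound. The non-responder mean was 5.78 and the PBS mean 4.83 (difference 0.95, SE 0.58, -0.26 to 2.16, adjusted p = 0.585). This difference rested on replicate 2, the only array of either group with S100a9 detected, and no fold is given. Without that array the difference was -0.0013, and within BeadChip 2 it was -0.03. All day 7 DX tumours had a mean of 6.07 against 4.83 in PBS (difference 1.24, SE 0.50, 0.19 to 2.29, adjusted p = 0.265), with a difference of 0.76 without non-responder 2. S100a9 was detected on 4 of these 6 DX arrays. Responders differed from non-responders by 0.58 (SE 0.58, -0.63 to 1.79; adjusted p = 0.923), by 1.53 without non-responder 2 and by -1.08 within BeadChip 1.

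On day 2 the S100a9 mean of DX exceeded PBS by 0.79 (SE 0.64, -0.57 to 2.14; adjusted p = 0.987), by 0.42 within BeadChip 3 and by 0.10 with BeadChip as a block. In PBS tumours the S100a9 mean was 4.83 on day 7 and 5.59 on day 2 (difference -0.76, SE 0.58, -1.97 to 0.45, adjusted p = 0.589), with -0.98 and -0.69 within BeadChips 2 and 3. S100a9 was detected on 0 of the 3 day 7 and 2 of the 3 day 2 PBS arrays. The DX effect of day 7 minus that of day 2 was 0.45 (SE 0.81, -1.26 to 2.16; adjusted p = 0.923). Day 10 responders differed from day 7 responders by -0.56 (SE 0.58, -1.77 to 0.65; adjusted p = 1), by -1.0 without day 10 responder 3 and by -0.20 without day 10 responder 1. The order of group means was day 2 DX, day 7 responders, day 10 responders, day 7 non-responders, day 2 PBS and day 7 PBS, and no step exceeded the pooled SD of 0.87. The last 4 groups include arrays on which S100a9 was not detected.

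**Figure D3:**
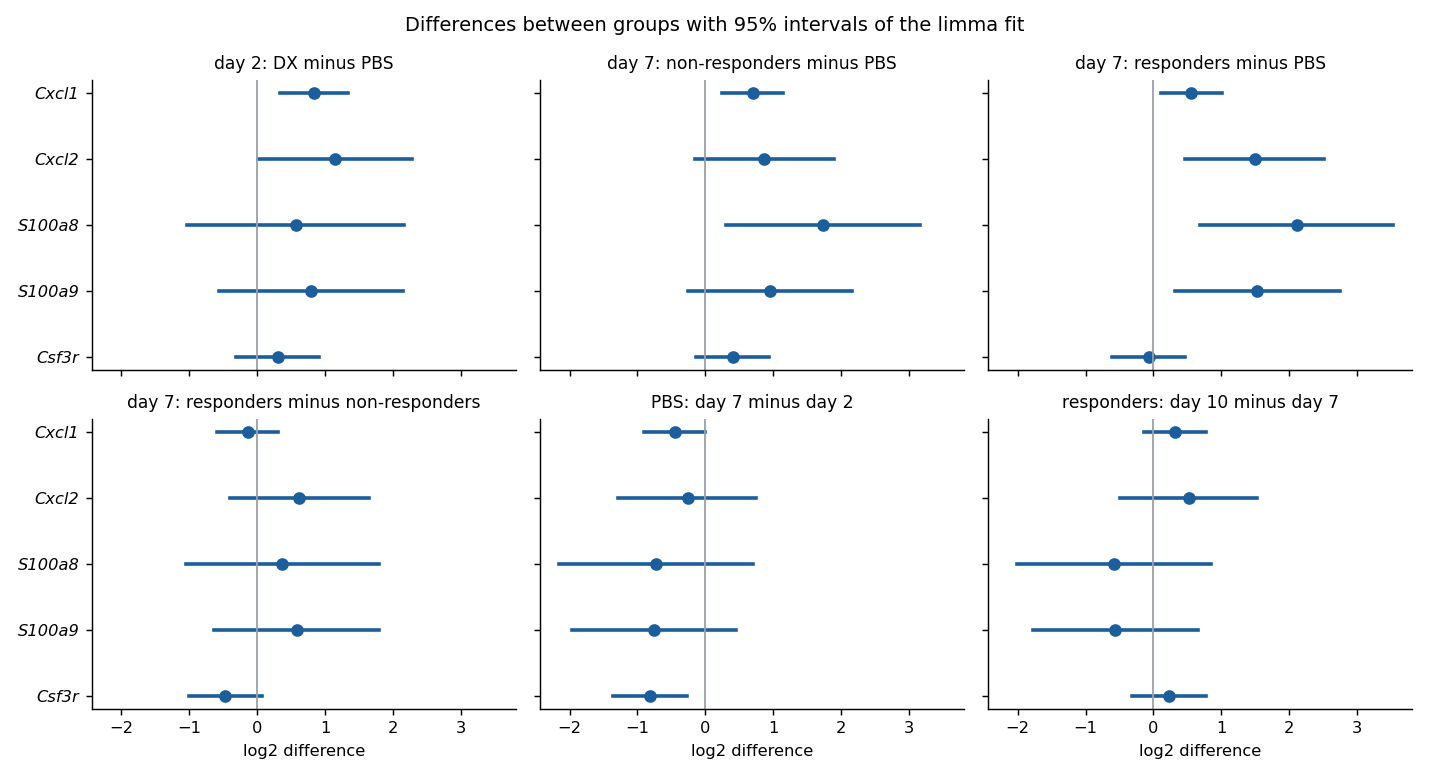
Log2 difference of group means (points) with its 95% interval from the limma fit (lines) for 5 genes in 6 comparisons. The vertical line marks no difference. The interval lies above 0 for Cxcl1, Cxcl2, S100a8 and S100a9 in day 7 responders against PBS, and the adjusted p of each is above 0.05. Csf3r was detected on no day 7 PBS or responder array.

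Across the 17 arrays the calprotectin genes and Cxcl2 varied together, and Cxcl1, Csf3 and Csf3r did so less closely. S100a8 and S100a9 correlated with Pearson's r = 0.89 and Spearman's rho = 0.86 (permutation p = 3e-05, adjusted over 15 pairs p = 0.00025 for r). Leaving out the 2 arrays farthest from the S100a8 median gave r = 0.83, and within BeadChips 1, 2 and 3 it was 0.83, 0.50 and 0.93. After subtracting each group's mean it was 0.91, so the arrays of a group differed in both genes together.

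Cxcl2 correlated with S100a8 at r = 0.82 and rho = 0.82 and with S100a9 at r = 0.82 and rho = 0.84 (permutation test, adjusted p = 0.00025 for each r). Without the 2 farthest arrays r was 0.72 and 0.78, and after subtracting group means 0.88 and 0.94. Within BeadChips 1, 2 and 3 the values were 0.61, 0.56 and 0.53 for S100a8 and 0.50, 0.67 and 0.73 for S100a9. Cxcl1 and Cxcl2 correlated at r = 0.59 and rho = 0.61 (permutation test, adjusted p = 0.045 for r), but this did not hold within BeadChips 1 and 2 (r = -0.07 and -0.32, against 0.85 in BeadChip 3). The other 11 pairs had an adjusted p above 0.05 by the permutation test on r. Csf3r correlated with S100a8 at r = 0.08 (rho = 0.08, permutation test, adjusted p = 0.87). The arrays within a BeadChip number 5 or 6, and values of undetected probes enter these correlations.

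The 3 genes outside the set whose level ran closest to each member, by Pearson's r over the 17 arrays, are given as a description. For Cxcl2 they were Il1rn, the interleukin-1 receptor antagonist (0.936), Ido1, the tryptophan-degrading enzyme (0.926), and Cfap45 (0.909). For S100a8 they were Kng1, which encodes kininogen and was detected on 4 arrays (0.894), Clec4d, a myeloid C-type lectin (0.869), and Slc25a37, the mitochondrial iron importer mitoferrin-1 (0.867). For S100a9 they were Pf4, platelet factor 4 (0.869), Glrx, glutaredoxin (0.866), and Slpi, the secretory leukocyte protease inhibitor (0.861). Slpi was also among those of Cxcl1 (0.79), after Hnrnpdl (0.815) and Csrnp1 (0.798). For Csf3r they were Pkib (0.781), Tmod3 (0.774) and Mybl2 (0.737), and for the rarely detected Csf3, Magel2 (0.766), Slc35a2 (0.755) and Runx1t1 (0.75).

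Neutrophil lineage and granule genes ranged from undetected to detected throughout. Of 40 listed, 35 had a probe, of which 10 were detected on 0 arrays, 6 on 1 array and 19, which were tested, on 2 or more. The primary granule genes Mpo and Prtn3, the later granule genes Ltf and Mmp8, and the neutrophil surface gene Cd177 were detected on 0 of 17 arrays, and so were Retnlg, Slfn4 and Cybb. Elane, Camp, Ngp, Cxcr1 and Itgam were detected on 1 array each and Lcn2 on 4. Cybb and Itgam are not particular to neutrophils, and the macrophage markers C1qb and Lyz2 were detected on all 17 arrays. Non-detection by a probe therefore does not show that a cell type was absent. The granule protease gene Ctsg was detected on 9 arrays at up to 7.27, Trem1, which encodes an activating myeloid receptor, and Il1r2 on 16 each, Pglyrp1, a granule protein gene, on 12, and the stefin gene Stfa1 on 7 at up to 10.32. Those detected on all 17 arrays (Mmp9, Fpr2, Clec4d, Ncf4, Cyba and Sirpb1a) are expressed more widely in myeloid cells. No tested gene of the list was called in 8 of the 9 comparisons, in which 0% to 0.634% of all features were. Over time in DX tumours Il1r2, the interleukin-1 decoy receptor, fell by 1.18 (SE 0.19, adjusted p = 0.00442), 1 of 19 against 1.63% of all features, and 0 were higher. The median of the 19 was 0.08 on day 2, 0.33 in responders and 0.28 in non-responders against PBS, with -0.02, 0.01 and 0.02 for all features. Among the 19, Stfa1 (10.32), Stfa2 (9.07) and Asprv1 (7.73) were highest on day 7 responder 3, the array with the highest keratinocyte marker mean (9.05). The part of epidermal RNA in the values of this list was not tested.

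Clec4d was 7.34, 7.07 and 7.72 in day 7 PBS, 7.71, 8.90 and 7.84 in non-responders and 8.54, 8.99 and 9.13 in responders, so the responders lay above all PBS arrays. Over all day 7 DX tumours it differed from PBS by 1.14 (SE 0.31, adjusted p = 0.106). Hdc, the histamine-producing decarboxylase of mast cells, basophils and neutrophils, was 1.71 higher in responders than in PBS (SE 0.39, adjusted p = 0.0554). Mmp9, a gelatinase of neutrophils and macrophages, differed by -0.73 (SE 0.17, adjusted p = 0.0632) in that comparison. Ncf4, a subunit of the phagocyte oxidase, differed by 0.56 between responders and non-responders (SE 0.19, adjusted p = 0.725).

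Few genes that induce this axis or feed back on it, inhibitors included, were called. Of 28 listed inducers and NF-kappaB or STAT3 feedback genes, 27 had a probe and 20 were tested. Nfkbiz, which encodes the atypical inhibitor IκBζ, rose by 0.65 in responders against PBS (SE 0.14, adjusted p = 0.0479), and it was the only called member of the 20 there, against 0.53% of all features. Its difference was 0.54 on day 2 (SE 0.16, adjusted p = 0.203) and 0.44 in non-responders (SE 0.14, adjusted p = 0.278). Il1b, the inflammasome-processed cytokine, fell by 1.06 from day 2 to day 7 in PBS tumours (SE 0.20, adjusted p = 0.0171). It was the only called member of the 20 there, against 0.634% of all features, and differed by -0.77 in DX tumours (SE 0.20, adjusted p = 0.057). Il1rn differed by 0.85 on day 2 (SE 0.36, adjusted p = 0.619). In the other 7 comparisons no member of this list was called, where 0% to 1.63% of all features were. Il17a, Il17f, Il23a, Il6 and Csf2 were detected on 0 of 17 arrays, Tnf on 10 and Il1b on 17.

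The lists of CXC chemokines, S100 genes and colony-stimulating factors had 0 called members in all 9 comparisons, where 0% to 1.63% of all features were called. Among 8 tested CXC chemokines and receptors of 11 listed, the median difference in responders against PBS was 0.55. Ackr3, the scavenging receptor of CXCL12, differed by 1.00 there (SE 0.25, adjusted p = 0.0892) and Pf4 by 0.93 (SE 0.27, adjusted p = 0.132). Among 10 tested S100 genes and calprotectin receptors of 15 listed, the median was -0.03 in responders and 0.00 in non-responders. Tlr4, a receptor of calprotectin, differed by 0.36 in responders (SE 0.19, adjusted p = 0.419) and by 0.50 in non-responders (SE 0.19, adjusted p = 0.356), both against PBS. Of 8 listed colony-stimulating factors and receptors, 6 were tested, among them Csf3 and Csf3r of the set itself. The medians, which include their values on undetected arrays, were 0.01 in responders and -0.08 in non-responders and are given as values only. Csf1r, the macrophage growth factor receptor, differed by -0.61 (SE 0.18, adjusted p = 0.139) and -0.74 (SE 0.18, adjusted p = 0.137) from PBS in these groups.

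The levels of markers of other cells are given beside those of the calprotectin genes. The mean level of the 8 tested epidermal keratinocyte markers, of 15 listed and 13 with a probe, was 5.04 to 5.36 in day 7 PBS. It was 5.14, 8.00 and 5.28 in non-responders, 5.52, 6.12 and 9.05 in responders, and 6.39, 7.37 and 7.67 in day 10 responders. It ranged from 5.18 to 7.35 in day 2 PBS and from 5.23 to 5.87 in day 2 DX. None of the 8 was called in any comparison, where 0% to 1.63% of all features were. Their median difference from day 7 PBS was 1.44 in responders and 1.04 in non-responders. Krt14, a keratin of basal epidermis, was 12.11 on non-responder 2, 12.92 on responder 3 and 11.72 on day 10 responder 3, the 3 arrays with the highest S100a8. Krt17 was 9.27, 10.06 and 8.97 on these arrays. Krt5 was not detected on non-responder 2, and Krt1 was detected on neither non-responder 2 nor day 10 responder 3. All 3 arrays lay on BeadChip 1.

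The arrays did not match throughout. Day 2 PBS replicate 3 had a keratinocyte level of 7.35 with S100a8 at 5.28, and day 7 non-responder 1 had 5.14 with S100a8 at 6.49. Without the 5 epidermis-rich arrays the S100a8 difference from day 7 PBS was 1.80 in responders and 0.80 in non-responders, and that of S100a9 was 1.34 and -0.0013. The part of epidermal RNA in these levels was not tested further. The mean level of 11 monocyte and macrophage markers was 9.43 to 9.67 in day 7 PBS, 9.14 to 9.25 in non-responders and 9.17 to 9.54 in responders. Of these markers 0 were called in either comparison with PBS, against 0.129% (non-responders) and 0.53% (responders) of all features. The skeletal muscle markers had a mean of 4.75 to 4.93 in day 7 PBS, 4.75 to 5.07 in non-responders and 5.64 to 10.91 in responders, and their part in the result was not tested beyond leaving out the 2 muscle-rich arrays.

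The other marker lists bear on the same samples. In day 7 responders against PBS, 0.53% of all features were called. There 2 of 5 tested T and NK cell markers were called higher, Nkg7 by 1.54 (SE 0.33, adjusted p = 0.0458) and Klrd1 by 1.45 (SE 0.28, adjusted p = 0.0385). That list held 10 genes, 9 with a probe, of which Cd4, Cd8a and Ncr1 were detected on 0 arrays and Gzmb on 1. Of 11 fibroblast markers only Thy1 was called, higher by 1.14 (SE 0.25, adjusted p = 0.0471). The fibroblast list did not rise as a whole, with 8 of 11 differences negative and a median of -0.19. Over time in DX tumours, 1.63% of all features were called. The T cell receptor subunits Cd3e and Cd3g, 2 of 5 tested of the T and NK cell list, rose by 1.21 and 1.06. Fcgr1, a macrophage Fc receptor and 1 of 11 of its list, fell by 1.27 (SE 0.20, adjusted p = 0.00389). The 3 tested haemoglobin chains (Hba-a1, Hbb-bt, Hbb-bs) were lower with DX on day 2, against 0.61% of all features called, where Hbb-bs fell by 2.92 (SE 0.49, adjusted p = 0.00569). From day 2 to day 7 in DX tumours they rose, Hbb-bs by 3.92 (SE 0.44, adjusted p = 0.000328). The change of their DX effect between the days was called too, against 0.225% of all features, with an adjusted p of 0.0092 to 0.0235. Endothelial markers (6 tested) and the 1 tested gene of the eosinophil, basophil and mast cell list, Cpa3, had 0 called in the 9 comparisons, against 0% to 1.63% of all features. The part of blood content in the members' levels was not tested.

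**Figure D4:**
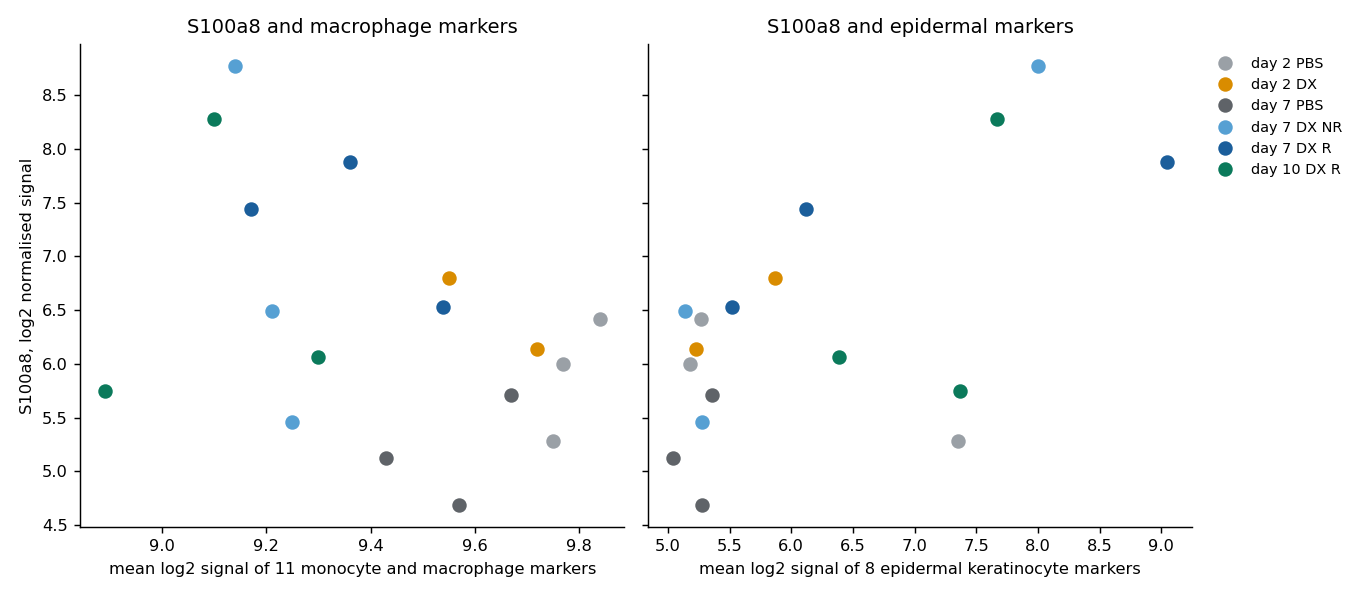
Level of S100a8 on each of the 17 arrays (vertical, log2 normalised signal) against the mean of 11 monocyte and macrophage markers (left) and against the mean of 8 tested epidermal keratinocyte markers (right), coloured by group. The macrophage marker level is between 8.89 and 9.84 on every array, and the 5 arrays with a keratinocyte level over 7 hold S100a8 from 5.28 to 8.77.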

How the data were processed

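The authors deposited, per the file headers, a linear signal intensity, not normalized, and a detection p-value for each probe on each array. Its calculation is not stated in the sources used here. The authors' processed table of intensity values was deposited too. Its column medians were 119.6 to 119.7, all 17 columns were closest in rank to their own array, and its sorted columns differed by at most 0.4301%, so it is linear, uncentred and quantile-like, with its other steps unknown. The submitters' processing notes name GenomeStudio 2011.1.

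Sample titles gave the groups and replicate numbers, and the labels' array positions gave the BeadChips. The deposited signals were put on the log2 scale by limma 3.58.1 (R 4.3.3) with its neqc function (offset 16, which shrinks differences of dim probes). Of 45281 probes, 34885 had 1 symbol, 18 several and 10378 none. Gene IDs of 34807 probes were found in a RefSeq table of GRCm38.p6, and 0 symbols changed. A probe was kept if its detection p-value was under 0.01 on 2 or more arrays (17674 probes). Each gene was tested by its brightest kept probe, which left 10035 features with a symbol and 2416 without.

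Means of the 6 groups were fitted with limma over the 17 arrays, with a trend of variance on mean level (11 residual and 6.98 prior degrees of freedom). The number of arrays limits the precision. Pair correlations used 100000 permutations of all 17 arrays, without regard to group or BeadChip. Deviations of same-numbered samples from their group means correlated little at the median (40 pairs of arrays, r from -0.22 to 0.54, median -0.01, 8 over 0.1). Such values cannot exclude that numbers pair samples, and replicate number entered as a block only among the alternatives.

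All 9 members were named, with the 3 genes most like each tested member and, of each list, up to 4 called genes or the 2 with the smallest p per comparison, of which the text gives examples. Further list genes are given by their detection or level only and were picked after their values were seen. The members and the lists (neutrophil genes, inducers, CXC chemokines, S100 genes, colony-stimulating factors, and markers of epidermis, muscle, macrophages, fibroblasts, endothelium, red cells, mast cells and T cells) were chosen with earlier results of these data known. Alternatives covered background correction, offset, filter, probe choice, array weights, BeadChip, replicate number, the authors' table and left-out arrays. The comparison of all day 7 DX tumours and the setting without epidermis-rich arrays were added after seeing the data.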

Additional observations from a re-analysis of the deposited data

Results flagged for a closer look

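S100a8 was singled out because the change from day 2 to day 7 ran in opposite directions in 2 groups. The responder mean was 0.82 above the day 2 DX mean, and all 3 responder arrays lay above that day 2 mean. The PBS mean of day 7 differed from that of day 2 by -0.72, and all 3 PBS arrays of day 7 lay below the day 2 mean. The difference between these changes was 1.54 on the log2 scale (SE 1.02), and limma's adjusted p for it was 0.738. Single arrays of the days overlapped. Responder 1 (6.53) lay below day 2 DX replicate 1 (6.80), and day 7 PBS replicate 3 (5.71) above day 2 PBS replicate 3 (5.28). S100a8 was detected on 1 of the 3 day 7 PBS arrays.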

How the results depend on the processing

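Each comparison was recomputed under the alternatives, which gave 189 counts of called members, of which 3 held a call and the others were 0, as in the reported fit. Array weights gave 1 called member on day 2 (Cxcl1) and 2 over time in DX tumours (Cxcl1 and Csf3r), and a fit of only the compared groups gave 1 in day 7 responders against PBS (S100a8); the cause was not tested. The 66 counts that left out 1 array each ranged from 0 to 0. With replicate number as a block (the replicate block) the count was 0 in all 9 comparisons, and the smallest adjusted p in the set was 0.117. Of 760 recomputed values of the differences given in the report, 14 changed sign, 5 of them within single BeadChips, as given in the report. The other 9 came from refitted models. With BeadChip as a fixed block these were S100a8 on day 2 (-0.29) and S100a8 (-0.36) and S100a9 (-0.066) in responders against non-responders. S100a9 in non-responders against PBS was -0.0013 without the epidermis-rich arrays, and ranged from -0.0013 to 1.44 when 1 array was left out. Leaving out 1 array each, S100a8 in responders against non-responders ranged from -0.35 to 1.31, and the change of the DX effect from -0.52 to 0.12 for Cxcl1 and from -0.038 to 0.94 for S100a9. The cause of these sign changes was not tested. The median of all features moved by less than 0.05 under each scaling. Signal near background limits Cxcl2, S100a8 in day 7 PBS, S100a9, Csf3 and Csf3r, whose values on undetected arrays have no order.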
